A study of Mus musculus with 9 samples.

Results

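Palb2, Nbn, Brca2, Blm, Fanca, Chek2 and Bub1b are 7 genes of DNA repair and of the cell-cycle checkpoints. They were chosen by name among the 251 genes of the dinaciclib table, with earlier results of these data known. That all 7 are listed follows from this choice. The reason given was that inhibitors of the transcriptional kinases CDK9 and CDK12 are known to lower recombination genes. The cells were EHE17, a single mouse tumour line labelled endothelial, with the labelled genotype TC+/+ Cdkn2a -/- in treated and control cells alike. Cdkn2a encodes inhibitors of the G1 kinases and of MDM2. One group received 300 nM dinaciclib for 16 h and the other DMSO vehicle, with 3 biological replicates each. A further group, given 10 µM MGH-CP1, sits in a table of 471 genes that lists 0 of the 7. Dinaciclib inhibits several cyclin-dependent kinases, both those of the cell cycle and those that act on RNA polymerase II.

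As background, BRCA2 loads the strand-exchange recombinase onto resected DNA ends, and PALB2 bridges BRCA1 to BRCA2. NBN is the subunit of the MRE11 complex that brings the kinase ATM to breaks. BLM is a helicase that resolves recombination intermediates, and FANCA belongs to the Fanconi anaemia core complex, which acts on crosslinked DNA. CHEK2 relays the ATM signal to p53 and CDC25 proteins, and BUB1B (BubR1) delays anaphase until chromosomes are attached. CDK12 is known for sustaining transcription of long recombination genes.

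Dinaciclib libraries held 2541162 to 3316779 counts and vehicle libraries 31852117 to 40020833, a mean 12.2 times higher. The table lists only genes that the authors' comparison had picked, with a deposited adjusted p up to 0.0474 and an absolute log2 fold change from 1.00. Hence passing a test on the same libraries is no independent evidence. The list is also labelled as one of cancer genes and has a tumour type column, so it is not every changed gene. Every level is a share of its library, and in bulk RNA fewer cells and less RNA per cell cannot be told apart. The listed genes together held 9.61% to 12.3% of the counts in dinaciclib libraries and 2.53% to 2.57% in vehicle libraries. The part of this shift in the changes was not tested. Of 18 endothelial markers, 4 were in the table (Kdr, Fli1, Notch1 and Gata2), with a summed level of 29.6 to 31.8 FPKM in dinaciclib libraries and 149 to 152 FPKM in vehicle libraries. None of the 8 fibroblast and mural, 8 leukocyte or 4 epithelial markers was in it.

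The promoters of the genes that moved furthest in each direction, Palb2 and Fanca, are shown with that of Brca2, whose protein binds PALB2. The windows are RefSeq's on GRCm38.p6, 250 bases before the start site and 50 after it, for 6 of the 7 genes: Palb2 at chr7:122132897-122133196 (minus strand), Fanca at chr8:123318527-123318826 (minus strand) and Brca2 at chr5:150522371-150522670 (plus strand). Capitals mark matches to the CCAAT box on either strand.
Palb2: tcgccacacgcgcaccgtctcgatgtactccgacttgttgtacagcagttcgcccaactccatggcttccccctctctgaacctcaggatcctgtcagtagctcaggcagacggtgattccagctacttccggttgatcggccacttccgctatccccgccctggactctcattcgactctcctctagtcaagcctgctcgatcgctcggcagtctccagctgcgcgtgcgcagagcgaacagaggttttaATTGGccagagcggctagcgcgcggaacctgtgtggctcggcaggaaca
Fanca: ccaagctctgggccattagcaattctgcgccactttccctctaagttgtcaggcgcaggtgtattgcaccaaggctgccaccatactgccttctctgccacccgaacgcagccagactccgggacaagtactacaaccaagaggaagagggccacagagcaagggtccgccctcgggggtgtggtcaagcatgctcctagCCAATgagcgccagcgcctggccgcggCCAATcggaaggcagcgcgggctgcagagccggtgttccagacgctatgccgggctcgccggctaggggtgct
Brca2: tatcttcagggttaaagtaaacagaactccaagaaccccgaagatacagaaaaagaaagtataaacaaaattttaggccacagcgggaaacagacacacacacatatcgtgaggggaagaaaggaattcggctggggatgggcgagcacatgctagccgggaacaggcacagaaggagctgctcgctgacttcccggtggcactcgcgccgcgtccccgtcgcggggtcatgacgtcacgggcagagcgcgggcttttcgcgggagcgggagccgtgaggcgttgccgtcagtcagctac

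The motifs searched, on both strands, were CCAAT, the E2F-type GGCGGGAA and the CHR-type TTTGAA. The first was found in 5 of the 6 promoters, all but that of Brca2, against 37.4% of 32851 RefSeq promoter windows of the same length. The Palb2 match began at position 2 relative to the start site, within the transcribed part. Fanca, which rose, and Chek2 and Blm, which fell, held 2 matches each, so the element was present on both sides. GGCGGGAA was in 0 of the 6 (2.19% of all windows), and TTTGAA in 1, that of Bub1b (17.9% of all windows). The GC content of the windows was 59.7% for Palb2, 63% for Fanca and 56.7% for Brca2, against a median of 52.7%.

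With dinaciclib, 6 of the 7 genes were lower and 1, Fanca, was higher. The edgeR quasi-likelihood test, adjusted by Benjamini-Hochberg over 248 genes, called 75% of the tested genes lower, 25% higher and 100% in either direction, so these counts are near those of the table. The groups did not overlap for any of the 7, as for 98.4% of the 251 listed genes (74.1% lower, 24.3% higher). The falls ranged from the complete loss of Palb2 reads to a 2.33-fold lower level of Brca2. With TMM factors computed over the table, Nbn and Palb2 were called lower and Fanca higher, Blm and Brca2 reversed, and Chek2 and Bub1b lost their calls. In that fit 69.2% of 247 tested genes were called, 43.7% lower and 25.5% higher. TMM assumes that most genes do not change, while every listed gene was picked for change, and it moved the median log2 change of all tested genes by 1.38, to −0.45 in place of −1.83. With total counts as library sizes, a shift of 0.13, all 7 calls held. The authors' size factors ran nearly in proportion to the total counts, so this is no separate check of the scale. Which scale is right was not tested.

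**Figure D1:**
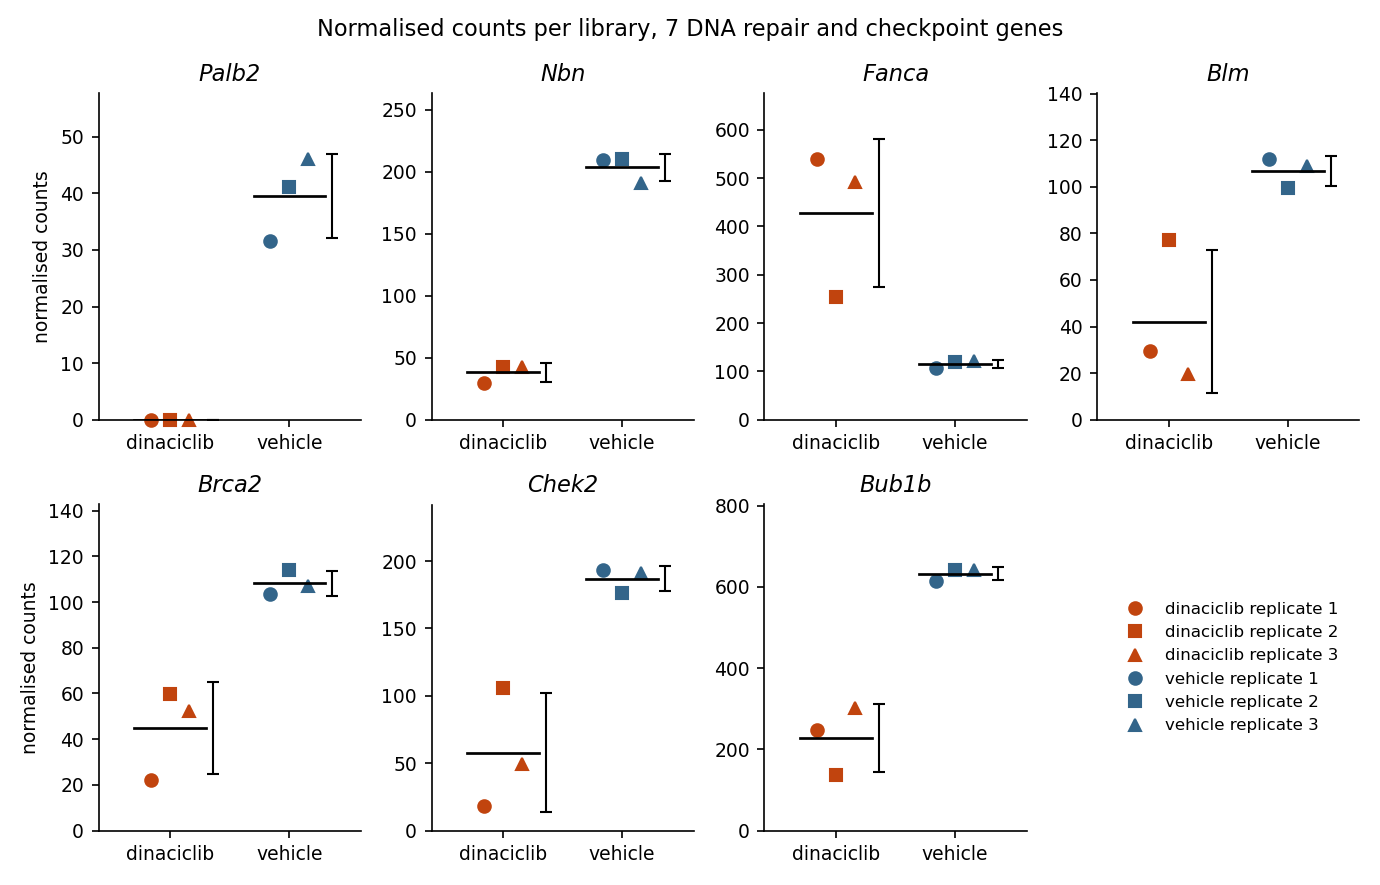
Normalised counts (counts divided by the authors' size factors, vertical axis from 0) of the 7 genes in each of the 3 dinaciclib libraries (left in each panel) and 3 vehicle libraries (right); lines are group means and bars the SD. The groups do not overlap for any gene, and Fanca alone is higher with dinaciclib; Blm and Brca2 change sign with TMM factors.

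Among the recombination mediators, Palb2 lost all of its reads. It had 0 counts in each of the 3 dinaciclib libraries, against 97, 136 and 179 counts in the vehicle libraries. Those are 31.5, 41.1 and 46.1 normalised counts in vehicle. At the vehicle mean, 36.6 counts would have fallen to the dinaciclib libraries together. With a floor of 3 counts over the group Palb2 was 12.2-fold lower. The 95% interval of its pooled counts, as a ratio to vehicle, ran from 0 to 0.0997 (exact binomial, counting error only), a looser limit. Both hold only on the scale of the authors' size factors. The edgeR quasi-likelihood test, which tests for any change and not for this size, gave a Benjamini-Hochberg adjusted p of 0.000937. The fitted log2 change depends on the prior count and is not given as a size. Of the 251 listed genes, 7 (2.79%) had no read in any dinaciclib library, and 45 of the 250 with vehicle reads (18%) were at least 10 times lower. Palb2 (ENSMUSG00000044702) spans chr7:122107262-122132985, and 414 of its 7342 exonic bases, or 5.64%, overlap the pseudogene Gm16326 on the other strand, whose reads these unstranded libraries cannot separate.

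Its partner Brca2 was lower by less. Brca2 had 22.2, 59.9 and 52.4 normalised counts in dinaciclib libraries, against 103, 114 and 107 in vehicle libraries. The highest dinaciclib value lay well below the lowest vehicle value. Brca2 (ENSMUSG00000041147, chr5:150522630-150570329) fell by 1.22 on the log2 scale (SE 0.268, edgeR quasi-likelihood test, Benjamini-Hochberg adjusted p = 0.00195), but with TMM factors the change was 0.16 at an adjusted p of 0.680. The dinaciclib level rests on 6, 21 and 16 counts, 43 in all, where the vehicle mean would have given 100.2.

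Nbn fell furthest of the genes that kept reads. Nbn had 29.6, 42.8 and 42.6 normalised counts in dinaciclib libraries, against 209, 210.4 and 191 in vehicle libraries. The 3 dinaciclib values lay close together, with a coefficient of variation of 19.7%, below the 28.5% that was the median of the table. Nbn (ENSMUSG00000028224, chr4:15957925-15992589) fell by 2.39 on the log2 scale (SE 0.213), or 5.23-fold (edgeR quasi-likelihood test, Benjamini-Hochberg adjusted p = 8.28e-06). The call held with TMM factors, at a log2 change of −1.004 (edgeR adjusted p = 0.00533). No exon of another annotated gene overlaps those of Nbn.

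The helicase gene Blm was lower, with a wide spread. Blm had 29.6, 77.0 and 19.7 normalised counts in dinaciclib libraries, against 112, 99.6 and 109 in vehicle libraries. Dinaciclib replicate 2 stood apart from the other replicates and came close to the vehicle values without reaching them. Blm (ENSMUSG00000030528, chr7:80454733-80535119) fell by 1.27 on the log2 scale (SE 0.346, edgeR quasi-likelihood test, Benjamini-Hochberg adjusted p = 0.00626), and its change was 0.11 with TMM factors (adjusted p 0.835). Without dinaciclib replicate 2 the log2 change was −2.13. The call was lost without vehicle replicate 1 or 3 (adjusted p 0.0532 and 0.0545 by the same test).

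Fanca went the other way. It had 539.96, 254 and 491 normalised counts in dinaciclib libraries, against 106, 118 and 121 in vehicle libraries. Every dinaciclib library was above every vehicle library, replicate 2 the least. Fanca (ENSMUSG00000032815, chr8:123268300-123318576) rose by 1.88 on the log2 scale (SE 0.280), or 3.69-fold (edgeR quasi-likelihood test, Benjamini-Hochberg adjusted p = 0.000199). The rise rests on 385 counts over the dinaciclib libraries, where the vehicle mean would have given 107. It was called under every alternative run, from 1.67 to 3.25 on the log2 scale. Of its 8761 exonic bases, 920 (10.5%) overlap the gene Zfp276 on the opposite strand, and the reads of the pair cannot be told apart there.

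The damage checkpoint kinase gene Chek2 was lower, with the widest relative spread of the 6 genes that kept reads. Chek2 had 18.5, 105.6 and 49.1 normalised counts in dinaciclib libraries, against 194, 176 and 191 in vehicle libraries. The dinaciclib coefficient of variation was 76.5%, and replicate 2 was again the highest. Chek2 (ENSMUSG00000029521, chr5:110839979-110874145) fell by 1.61 on the log2 scale (SE 0.351, edgeR quasi-likelihood test, Benjamini-Hochberg adjusted p = 0.00189). Without dinaciclib replicate 2 the log2 change was −2.43, and with TMM factors it was −0.22 (edgeR adjusted p = 0.649).

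The spindle checkpoint gene Bub1b was lower but kept the most reads of the 6 lower genes. Bub1b had 248, 137 and 301 normalised counts in dinaciclib libraries, against 615, 642 and 641 in vehicle libraries. Here dinaciclib replicate 2 was the lowest, opposite to Blm, Brca2 and Chek2. Bub1b (ENSMUSG00000040084, chr2:118598211-118641591) fell by 1.48 on the log2 scale (SE 0.267), or 2.79-fold (edgeR quasi-likelihood test, Benjamini-Hochberg adjusted p = 0.000645). With TMM factors the log2 change was −0.11 and was not called (adjusted p 0.733 by the same test). Of the 23 spindle checkpoint and kinetochore genes looked for, Bub1b was the 1 in the table.

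**Figure D2:**
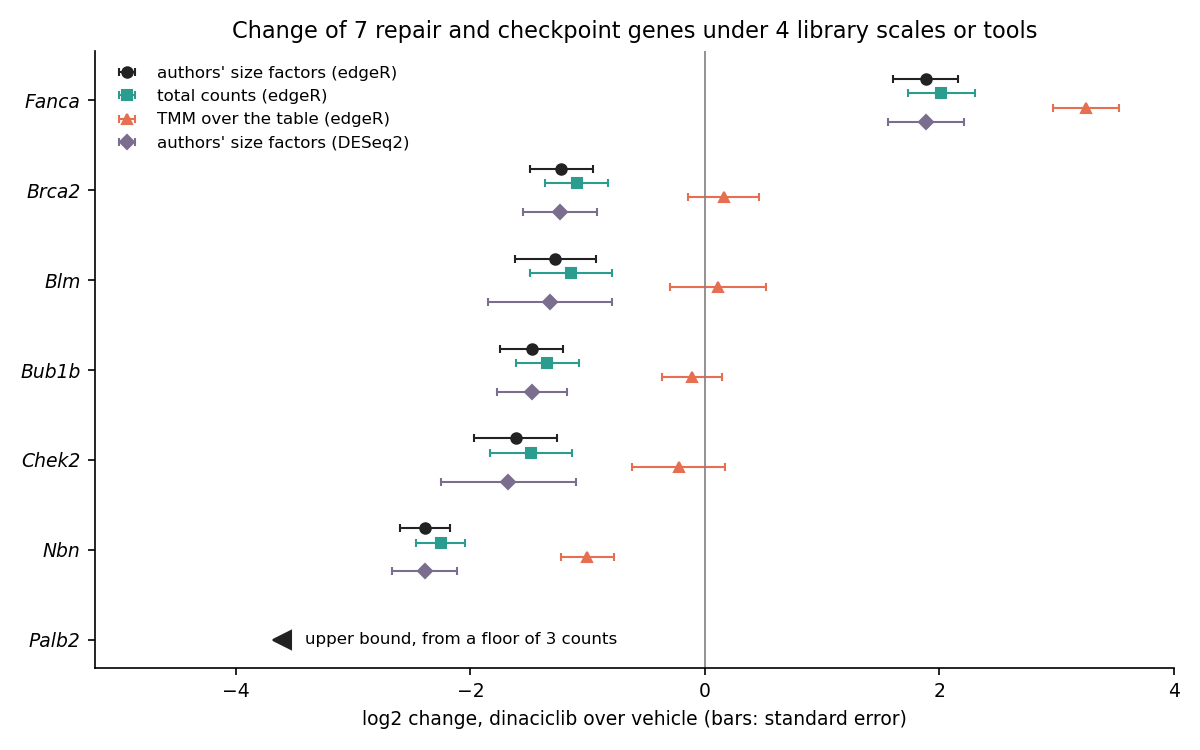
Log2 change of the 7 genes, dinaciclib over vehicle, with standard errors, under the authors' size factors, total counts and TMM factors in edgeR and under DESeq2. Palb2, with 0 dinaciclib counts, is drawn at the value given by a floor of 3 counts. TMM factors move every gene to the right, take Blm and Brca2 across 0 and leave Fanca higher.

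Set against the whole table, most of the falls were modest. Of the 6 lower genes, 4 (Chek2, Bub1b, Blm and Brca2) fell by less than the median gene tested, and 2 (Nbn and Palb2) by more. That median includes the genes that rose; the median of the genes called lower was −2.395, and Nbn, at −2.387, did not pass it. Counted from the lowest change among 248, Nbn ranked 94, Chek2 144, Bub1b 152, Blm 170 and Brca2 175, while Fanca ranked 211. Palb2, with no dinaciclib reads, has a bound and no measured rank. The median log2 change of the 7 was −1.48, against −1.83 over all tested genes.

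**Figure D3:**
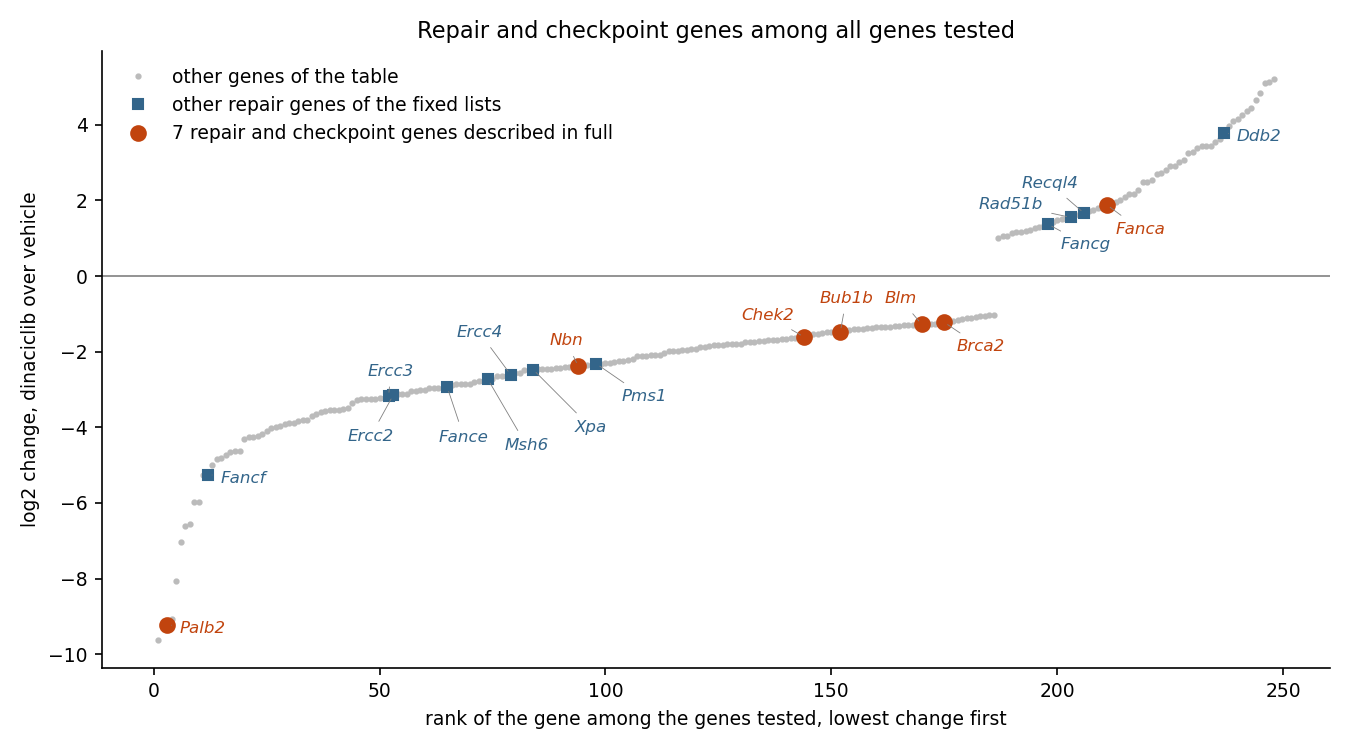
Log2 change (dinaciclib over vehicle) of the 248 tested genes in order of change, with the 7 genes as circles and 12 other listed repair genes as squares. Palb2 is drawn at its fitted value, which depends on the prior count; Nbn sits mid-way down the falls, Brca2 and Blm at their shallow end, and Fanca among the rises. Blm and Brca2 change sign with TMM factors.

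Levels per length, in FPKM, changed their order. In dinaciclib libraries Bub1b averaged 5.69 ± 2.11 FPKM and Fanca 5.20 ± 1.87 FPKM, and their ranges overlapped (SD, n = 3). In vehicle libraries Bub1b averaged 14.3 ± 0.381 FPKM and Fanca 1.27 ± 0.0899 FPKM, with Nbn at 7.78 ± 0.417 and Chek2 at 6.04 ± 0.295 FPKM between them (SD, n = 3). Fanca thus moved to rank 2 of the 7 with dinaciclib, against rank 4 in vehicle. In dinaciclib libraries Chek2 averaged 2.04 ± 1.55, Nbn 1.61 ± 0.316, Blm 0.508 ± 0.368 and Brca2 0.349 ± 0.155 FPKM, and Palb2 was listed at 0. Chek2 overlapped both Fanca and Nbn in that group, as Blm overlapped Brca2. In vehicle libraries Blm averaged 1.18 ± 0.0694, Brca2 0.768 ± 0.0401 and Palb2 0.522 ± 0.0988 FPKM, and only Fanca and Blm overlapped among neighbours. The authors' gene length equalled the union of annotated exons for 236 of 251 genes, these 7 included (7342 bases for Palb2, whose principal transcript has 3750), so a level per length depends on it.

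Ratios of genes within a library do not depend on the library scale. The FPKM ratio of Fanca to Brca2 was 37.9, 6.60 and 14.6 in dinaciclib libraries, against 1.601, 1.61 and 1.76 in vehicle libraries. That of Fanca to Bub1b was 1.06, 0.905 and 0.796 in dinaciclib libraries, against 0.0843, 0.0899 and 0.0921 in vehicle libraries. The ratios of Fanca to Nbn, Blm and Chek2 also had separate groups, and the geometric mean ratio of the 5 pairs was 9.29 to 19.0 times higher with dinaciclib. For each of these 5 the two-sided exact permutation test gave p = 0.1, the smallest that 3 against 3 libraries allow, and 0.14 adjusted by Benjamini-Hochberg over the 7 pairs examined. Fanca rose and these 5 genes fell with no overlap of groups, so the separate ratios and that p were fixed in advance. They are no further evidence. Fancg, another core complex gene, and Recql4 both rose, as Fanca did. The ratio of Fanca to Fancg ran from 0.448 to 0.764 with dinaciclib and from 0.431 to 0.456 with vehicle. Its groups overlapped (exact p = 0.2, adjusted 0.233). The ratio of Fanca to Recql4 overlapped too (exact p = 1). These pairs were picked after the values were known.

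**Figure D4:**
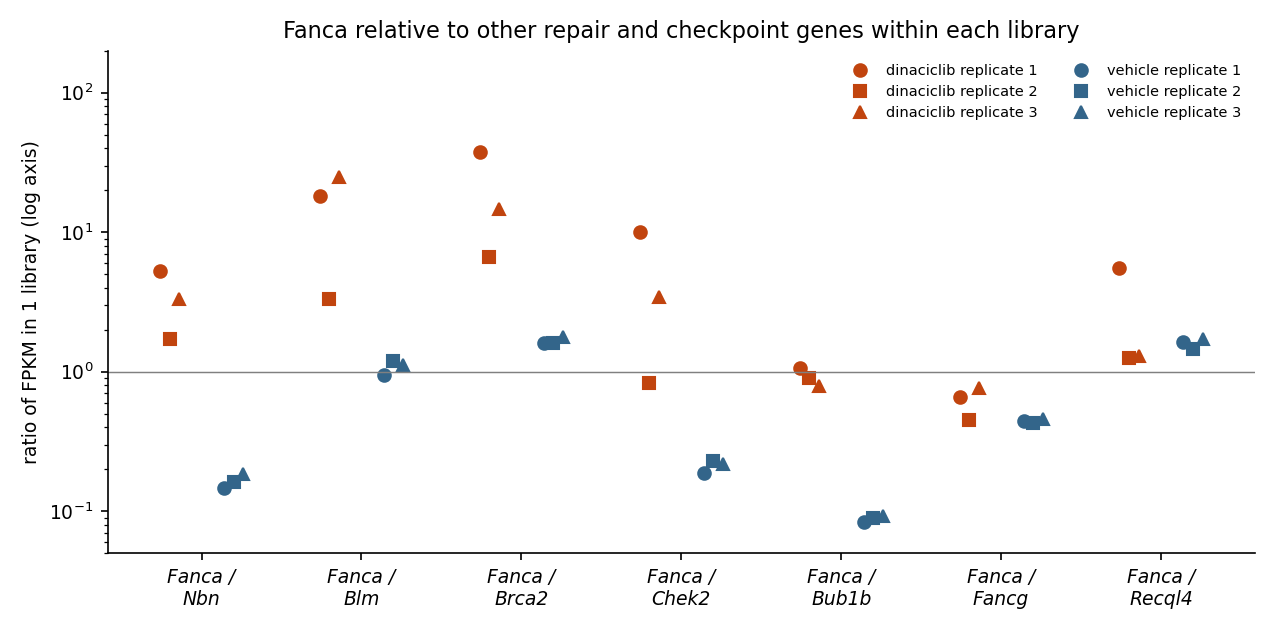
Ratio of the FPKM of Fanca to that of 7 other genes within each library (log axis), dinaciclib left and vehicle right of each pair. The ratios to Nbn, Blm, Brca2, Chek2 and Bub1b are higher in every dinaciclib library than in any vehicle library, while those to Fancg and Recql4 overlap.

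Of 46 genes on the list for homologous recombination and Fanconi anaemia, 10 were in the table. In the edgeR fit, adjusted over all tested genes, 6 of these were lower and 4 higher, against 75% lower over the table, with a median log2 change of −1.25. TMM factors reversed Blm and Brca2. Beside the genes above, these were Fancg, Fancf, Fance, Rad51b and Recql4.

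The Fanconi anaemia core complex genes split. FANCA and FANCG are known to pair in one module of the complex, and FANCE and FANCF in another with FANCC. Fancg had 355, 245 and 278 normalised counts in dinaciclib libraries, against 104, 119 and 115 in vehicle libraries. Fancg thus rose in every library, as Fanca did, by 1.37 on the log2 scale (SE 0.185, edgeR quasi-likelihood test, Benjamini-Hochberg adjusted p = 0.000110). Fance had 0, 42.8 and 9.83 normalised counts in dinaciclib libraries, against 135, 160.3 and 153 in vehicle libraries. It fell by 2.94 on the log2 scale (SE 0.480, adjusted p 0.000349, same test). Without dinaciclib replicate 2 the log2 change was −4.83, which rests on 0 and 3 counts and is near the floor. Fancf had 1 count in all dinaciclib libraries, from replicate 2, against 446 in vehicle libraries, where the vehicle mean would have given 40.5. Scaled by the size factors the pooled counts were 40.2 times lower, with a 95% interval of 7.18 to 1592 times (exact binomial, counting error only), and the edgeR adjusted p was 7.30e-05. Without replicate 2 no read of Fancf remained with dinaciclib. Fancf has 1 exon, of which 253 bases (15.0%) overlap Gas2 on the opposite strand. Other subunit genes of the complex on the list were looked for and were not in the table, so the split covers only these 4.

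**Figure D5:**
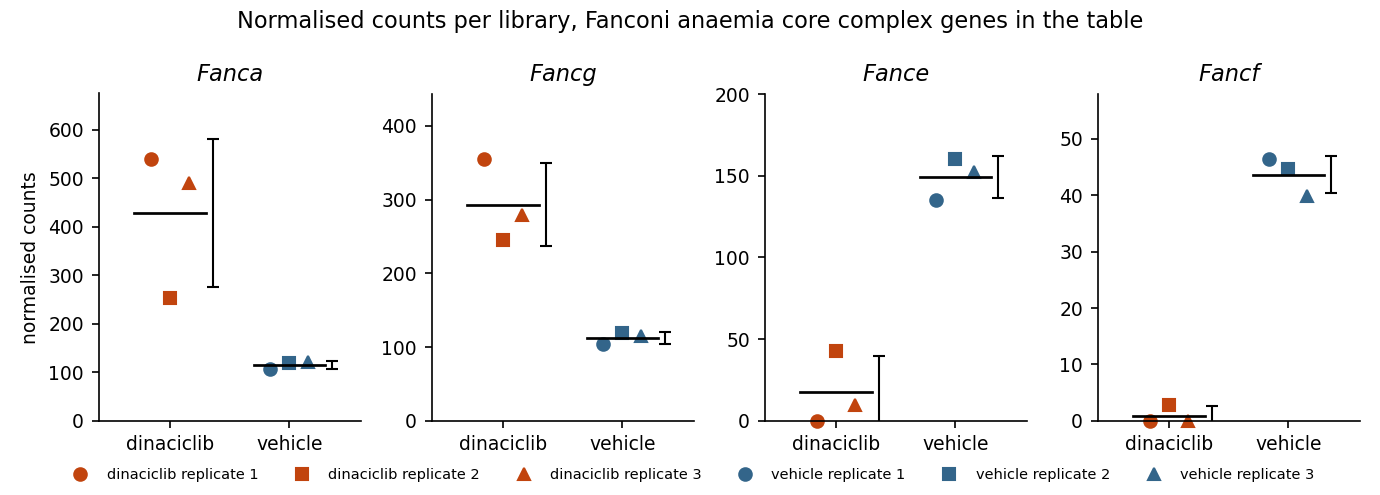
Normalised counts (vertical axis from 0) of 4 Fanconi anaemia core complex genes in each dinaciclib library (left) and vehicle library (right), with group means and SD; bars that would pass below 0 are cut at the axis. Fanca and Fancg are higher in all 3 dinaciclib libraries, and Fance and Fancf lower.

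Rad51b, which acts in recombination, had 29.6, 28.5 and 62.2 normalised counts in dinaciclib libraries, against 13.6, 11.8 and 15.2 in vehicle libraries. Recql4, named after its values were seen, encodes a helicase of the same RecQ family as BLM. It had 48.1, 99.9 and 187 normalised counts in dinaciclib libraries, against 32.2, 40.2 and 35.0 in vehicle libraries. Neither gene's groups overlapped. They rose by 1.55 and 1.66 on the log2 scale (edgeR quasi-likelihood test, Benjamini-Hochberg adjusted p = 0.00229 and 0.00231). The dinaciclib levels rest on 8, 10 and 19 counts for Rad51b and 13, 35 and 57 for Recql4. Without dinaciclib replicate 3 the log2 changes were 1.09 and 1.10. The RecQ helicase genes Recql4 and Blm therefore lay on opposite sides, Blm changing sign with TMM factors. Of the exonic bases of Recql4, 9.72% overlap Mfsd3 on the opposite strand.

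Of 7 mismatch repair genes looked for, 2 were in the table and the edgeR fit called both lower, as it did 75% of all tested genes. Msh6, whose protein recognises mismatches, averaged 58.0 ± 24.8 normalised counts with dinaciclib and 388 ± 11.6 in vehicle (SD, n = 3 each). Pms1, of the MutL family, had 7, 2 and 0 counts in dinaciclib libraries, against 154, 144 and 205 in vehicle libraries. Its log2 change of −2.32 became −3.98 without dinaciclib replicate 1, which rests on 2 and 0 counts and is near the floor. With TMM factors 1 of the 2, Msh6, was called lower, against 43.7% of all tested genes.

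Of 20 nucleotide excision repair genes, 5 were in the table, of which the edgeR fit called 4 lower and 1 higher, near the 75% and 25% of all tested genes. Ercc3 and Ercc2 encode the helicases of the transcription factor TFIIH. Ercc3 averaged 59.1 ± 9.43 normalised counts with dinaciclib and 533 ± 10.1 in vehicle (SD, n = 3 each), a log2 change of −3.18. Ercc2 had 2, 10 and 0 counts in dinaciclib libraries, against 322, 401 and 469 in vehicle libraries, with a log2 change of −3.15. Without dinaciclib replicate 2 it was −5.04, which rests on 2 and 0 counts and is near the floor. Of its exonic bases, 17.8% overlap Klc3 and 24.6% Gm26852 on the opposite strand. Ercc4, a subunit of the nuclease that cuts 5′ of the lesion, averaged 38.9 ± 13.98 normalised counts with dinaciclib and 231 ± 4.40 in vehicle (SD, n = 3 each). Xpa, likewise named after its values were seen, encodes a scaffold of the repair complex and had 11, 0 and 6 counts in dinaciclib libraries, against 312, 368 and 370 in vehicle libraries. Its log2 change of −2.47 became −3.48 without dinaciclib replicate 1, on 0 and 6 counts, and −1.79 without replicate 2. It lost its call with TMM factors (adjusted p 0.131 by the same edgeR test). Ddb2, which encodes a damage sensor, was the 1 higher gene, at 203 ± 42.9 normalised counts with dinaciclib and 14.5 ± 2.84 in vehicle (SD, n = 3 each), a log2 change of 3.78. Of its exonic bases 23.8% overlap Acp2 on the opposite strand.

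In all, 19 of 157 genes on the 7 repair and checkpoint lists were in the table, 14 lower and 5 higher, against 75% lower among all tested genes. Chek2 was the 1 of 28 damage checkpoint genes listed. None of 23 base excision, 10 end joining or 23 replication and proliferation genes was in the table, nor were Cdk12, Cdk13, Ccnk and Cdk9. A gene outside the table is not reported as unchanged. It may also be absent for want of the cancer annotation.

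In gene structure, which their choice did not use, the 7 genes resembled the table in span and intron share. Their exon numbers and coding lengths were higher by median. Introns took 71.4% to 92.7% of their spans, against an interquartile range of 71.3% to 90.7% over the tested genes. Their spans ran from 25.7 kb (Palb2) to 80.4 kb (Blm), with a median of 43.4 kb, against 40.4 kb over all tested genes. Their principal transcripts have 13 (Palb2) to 43 (Fanca) exons, with a median of 22 against 12. Their median coding length was 3312 bases against 1875. Both medians lay above the upper quartile of the tested genes, 20 exons and 3168 bases. Fanca, the gene that rose, spans 50.3 kb and has the most exons of the 7, while Palb2, the gene that lost its reads, has the fewest and the shortest span. Across the 248 tested genes the rank correlation of span with log2 change was −0.03 and that of exon number 0.09. These are descriptions over genes that share 6 libraries and were picked for change. Genes called lower had a median span of 47.8 kb, against 20.9 kb for genes called higher. In vehicle the 7 were expressed at a median of 1.27 FPKM, below the 8.61 FPKM of all tested genes.

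For each of the 7, the gene with the most similar pattern was sought among 188 genes with a mean of at least 178.8 normalised counts, the lower quartile of the table, by Euclidean distance of log2(normalised count + 1) centred on each gene's mean over 6 libraries. Bub1b lay nearest to Cic, a transcriptional repressor gene (distance 0.183), and Nbn to Pafah1b2, a phospholipase subunit gene (0.189). Brca2 lay nearest to Brd3 (0.331), Blm to Trim33 (0.365), Fanca to the G protein gene Gna11 (0.556), Chek2 to the Hedgehog receptor gene Ptch1 (0.756) and Palb2 to the RNA helicase gene Ddx6 (1.2). Palb2 had no dinaciclib reads, so its distances depend on the added 1. Of the nearest genes, Brd3 and Cic changed sign with TMM factors, and Trim33 and Ptch1 lost their calls (edgeR adjusted p = 0.830 and 0.554). Trim33 and Ptch1 also had their highest dinaciclib value in replicate 2, and without it their log2 changes were −2.37 and −2.57, against −1.52 and −1.73 with all libraries.

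Dinaciclib replicate 2 was the highest of the 3 for Blm, Brca2, Chek2 and, by a small margin, Nbn, and the lowest for Fanca and Bub1b. Over the table, it was the highest in 52% of 179 lower genes with a single highest library and the lowest in 81.5% of the 65 higher genes. It was also the library with the most counts, and the part of depth or of the library in these values was not tested.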

How the data were processed

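RNA sequencing libraries of 3 dinaciclib and 3 vehicle replicates were compared; samples were grouped by their titles. The submitters' processing notes name HISAT2 2.0.5 and featureCounts 1.5.0-p3, beside fastp and DESeq2 1.20.0. Per the labels' protocols RNA was captured on poly-T beads and the libraries carry no strand mark. A genome build was not given in the sources used here. GRCm38 was used because GENCODE M21 holds 251 of 251 gene identifiers, of which 242 match in position. Per the file headers the authors deposited raw read counts per gene, FPKM and gene lengths. They also deposited their comparison (log2 fold change, p-value and its adjusted form). Normalised counts are a deposited signal, each count over the size factor of its library; 100% of values gave 1 factor and 1 total per library, within a relative tolerance of 0.001.

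Counts were tested with edgeR 4.0.16 in R 4.3.3 (quasi-likelihood, two-sided, authors' size factors as library scale, filterByExpr with a minimum count of 10, which left out 3 of 251 genes), with Benjamini-Hochberg adjustment over all tested genes and a threshold of 0.05. The SE given with an edgeR log2 change is the unsigned change divided by the square root of the F value of its test. The script was tested on simulated data. Some list genes are not reported here and were left out of the lists, though not of the fit. The genes, lists and pairs were chosen with earlier results of these data known. Beside the 7 genes, the text names list genes in the table (up to 4 per list by smallest p; Recql4 and Xpa, each the fifth of its list, were added after their values were seen), Cdk12, Cdk13, Ccnk and Cdk9 if listed, and the gene nearest in pattern to each. The ratios of Fanca to other genes were added after seeing the data. Alternatives were TMM factors, total counts, DESeq2 1.42.0, no or a stricter count filter, thinned vehicle counts, the replicate number as a block, a threshold of 0.01 and leaving out each library. Exact tests used scipy 1.17.1 and figures matplotlib 3.10.9. Replicate pairs differed by more than sampling noise (chi-square 5.53 to 14.4 times its degrees of freedom). Intervals and floors cover counting error only.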

Additional observations from a re-analysis of the deposited data

How the results depend on the processing

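Of the values of single genes under an alternative, 319 kept their direction and their side of the threshold, 12 kept their direction but passed to the other side and 4 reversed. The reversals came with TMM factors over the table: Blm 0.11, Brca2 0.16, Brd3 0.33 and Cic 0.0090 on the log2 scale. With these factors Chek2 (−0.22) and Bub1b (−0.11) also lost their calls. Under them the genes called lower numbered 108 in place of 186 and the members called lower 2 in place of 6. Mismatch repair genes called lower numbered 1 in place of 2, as with thinned vehicle counts (1). Pms1, Fancf and Rad51b did not pass the count filter with thinned vehicle counts. With the replicate block Blm (−1.50, edgeR adjusted p = 0.0516) and Brca2 (−1.33, 0.0553) were no longer called, and the recombination list had 2 called higher in place of 4, without Rad51b (0.0602) and Recql4 (0.0505); 240 genes were called in place of 248. Same-numbered libraries did not deviate together over 188 genes picked for change (correlations 0.0584, 0.0433 and −0.00092). The sample titles give only a number, so whether same-numbered libraries were handled together is not known. Leaving out 1 library at a time gave log2 changes of −2.13 to −0.92 for Blm, which lost its call without vehicle replicate 1 or 3, −1.50 to −0.94 for Brca2, −2.43 to −1.24 for Chek2, −1.76 to −1.20 for Bub1b, −2.48 to −2.25 for Nbn and 1.67 to 2.15 for Fanca. The dinaciclib depth limits the values: between 0 and 207 counts stand behind each lower gene. The other alternatives changed no call of the 7 genes; FPKM on the authors' size factors were 0.911 to 0.914 times the deposited ones in dinaciclib libraries, within 1 SD. The cause of these differences was not tested.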

Other observations

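Vehicle counts thinned to the dinaciclib depth gave 11, 18 and 10 counts for Palb2 and 8, 15 and 9 for Fancf, against 0, 0 and 0 and 0, 1 and 0 counts in dinaciclib libraries. In this random draw both genes thus had reads in every thinned vehicle library. Fancf did not pass the count filter of the thinned fit, and the part of depth in the lost reads was not tested.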
